A study of Mus musculus with 8 samples.

Results

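Cytosolic ribosomal protein genes were followed in the lungs of male mice transgenic for Fra-2, the AP-1 transcription factor encoded by Fosl2. Members were the named genes whose symbol starts with Rpl or Rps followed by a digit, together with Rplp0, Rplp1, Rplp2 and Rpsa and without the Rps6k kinases. This took 62 of 8741 named genes, on 93 of 12296 named probes; 38 carry symbols of the large subunit and 24 of the small one. The RefSeq table lists 91 protein-coding symbols that fit the same description, and those without a named probe here were not analysed. All 62 entered the tests, and none was lost to a filter on missing values.

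The animals were 4 transgenic males of 14 weeks on a mixed C57BL6 and CBA background. Each was hybridised on 2 two-colour arrays of opposite dye orientation, giving 8 arrays in all. The partner on every array was a single pool, mixed from the lungs of 4 wild-type males that matched in age and background. The pool counts as 1 control sample, so its own spread enters no test, and the number of mice limits the precision. The labels give neither the promoter of the transgene nor the line, and no probe is named Fosl2 here, so the transgene itself could not be checked. Ages of 6 and 10 weeks belong to the study and were not analysed here.

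The ribosome is built from a small subunit, which decodes the mRNA, and a large subunit, which forms the peptide bond, each a scaffold of ribosomal RNA coated with proteins. Many mRNAs of these proteins begin with a run of pyrimidines at the cap, the terminal oligopyrimidine tract, through which mTORC1 and LARP1 set their translation. Several ribosomal proteins have further roles: the P proteins of the stalk recruit elongation factors, RPL5 and RPL11 bind MDM2 outside the ribosome, and RPS6 is the substrate that gave the S6 kinases their name. In lung, as elsewhere, ribosomal protein mRNAs are among the most abundant transcripts of nearly every cell.

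The bases around the annotated start sites of members that changed are shown because the pyrimidine tract lies there. Each window runs from 10 bases before the start to the 20 bases from it on, 5′ to 3′ on the coding strand, from RefSeq promoters of build GRCm38.p6. Capitals mark the longest unbroken run of C or T where it had at least 7 bases. The first 6 belong to genes that were higher in transgenic lung and the others to genes that were lower; both sets are a selection.
Rpsa (chr9:120127756-120127785, plus strand): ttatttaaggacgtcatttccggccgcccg
Rps26 (chr10:128626487-128626516, minus strand): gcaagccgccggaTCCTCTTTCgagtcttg
Rplp2 (chr7:141447641-141447670, plus strand): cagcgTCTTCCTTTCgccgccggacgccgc
Rps9 (chr7:3704031-3704060, plus strand): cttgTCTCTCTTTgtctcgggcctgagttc
Rpl38 (chr11:114668570-114668599, plus strand): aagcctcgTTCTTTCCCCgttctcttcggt
Rpl39l (chr16:10170218-10170247, plus strand): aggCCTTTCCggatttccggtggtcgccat
Rpl27a (chr7:109519185-109519214, plus strand): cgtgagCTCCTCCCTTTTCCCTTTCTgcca
Rpl31 (chr1:39367841-39367870, plus strand): tcctcgCCTCCCCgtgacccggaagttgta
Rps6 (chr4:86857348-86857377, minus strand): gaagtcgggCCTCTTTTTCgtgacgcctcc
Rpl11 (chr4:136053374-136053403, minus strand): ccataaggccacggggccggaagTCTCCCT
Rpl5 (chr5:107900518-107900547, plus strand): cgtcgcttgcgtgctggtggtgctacatac

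A run of at least 7 pyrimidines on the coding strand stood in 30 of 62 promoter entries of the 54 members found in the table (48.4%), against 17.9% of all 32851 entries. The run was present in 6 of 10 entries of members that were higher, in 5 of 7 of members that were lower and in 19 of 45 of members not called (42.2%). It thus occurred among genes that moved either way and among those not called. A run counted anywhere in the window, and that of Rpl11 begins only at base 14 from the start. Rpl27a had the longest run of those shown, 20 bases, and was lower; Rps26 and Rps9, with 9 bases each, were higher. Rpsa and Rpl5, whose windows hold no such run, were higher and lower. The AP-1 sequence TGANTCA, which reads the same on both strands, was found in the 300-base promoters of 2 members, Rpl22 and Rpl9 (3.23% of entries), against 7.81% of all entries. A match is a description of the letters, and annotated starts can lie some bases from the start in use.

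Values are log2 ratios, likely of transgenic over pool: the labels put transgenic RNA in channel 1 on every array, but the order of division is not stated, and with the opposite order higher and lower exchange throughout. Each value below is the mean of the 2 arrays of a mouse, given as mean ± SD over n = 4 mice. Adjusted p-values come from limma over 8692 named genes with Benjamini-Hochberg adjustment, and a gene is called at an adjusted p under 0.05. Gene names rest on an offset of 11 between the numbers of the platform annotation and those of the values. At that offset, 42 pairs of probes of the same ribosomal protein gene correlated at a Spearman coefficient of 0.55, the highest of 121 offsets tried (the next, at an offset of 14, gave 0.495 over 40 pairs). A ratio carries no level, so neither the abundance of a transcript nor the presence of lung markers could be read from it. In whole lung, fewer cells of a type and less RNA per cell cannot be told apart.

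The first comparison asked which ribosomal protein genes differed between transgenic lung and the pool. Calls went in both directions, while the member median differed by mouse, from 0.18 in mouse 1 to -0.24 in mouse 4. Of the 62, 10 were higher, 6 were lower and 46 were not called, with a median log2 ratio of 0.013; over all named genes the median was -0.011. The share called, 25.8%, stands beside 31.9% of all genes tested; 16.1% of members were higher against 13.5% of all genes, and 9.68% lower against 18.4%. The share higher lay near that of all genes, and the share lower was smaller. The highest member was Rpsa and the lowest Rpl27a, and the means spread with an SD of 0.25 over members against 0.37 over all genes. With 1 mouse left out, fewer genes passed among members and among all genes. Without mouse 1, 4 members were higher and 4 lower, beside 6.9% and 10.9% of all genes. Without mouse 2 there were 4 and 1, beside 8.32% and 11.4%. Without mouse 3 there were 5 and 4, beside 8.89% and 14%, and without mouse 4 there were 10 and 5, beside 11% and 13.2%.

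**Figure D1:**
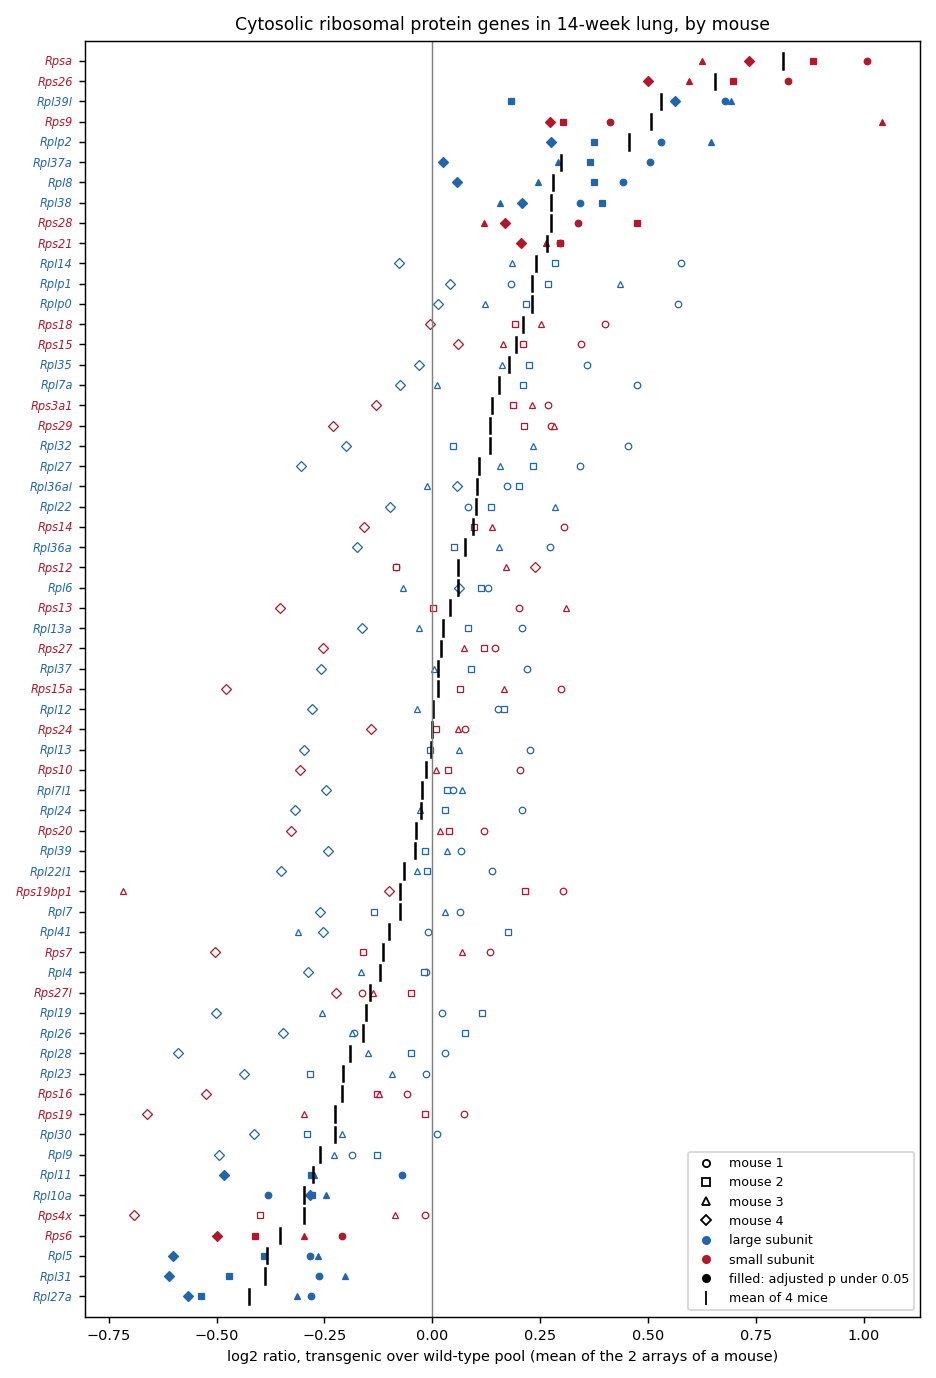
Log2 ratio of transgenic over pool (x axis) for the 62 ribosomal protein genes (y axis, ordered by mean); each symbol is 1 mouse, the black bar is the mean of 4 mice, blue is the large and red the small subunit, and filled symbols mark an adjusted p under 0.05. The means run from -0.42 for Rpl27a to 0.81 for Rpsa, and mouse 4 (diamonds) had the lowest value in 52 of the 62 genes. The same count was not made over all genes.

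Among small subunit genes, 5 of 24 were higher and 1 was lower. Rpsa encodes the laminin receptor precursor, which sits at the mRNA exit of the small subunit and is also found at the cell surface. Its arrays with transgenic RNA in Cy5 gave 1.12, 1.01, 0.87 and 0.97 in mice 1 to 4, and those with it in Cy3 gave 0.89, 0.76, 0.38 and 0.50. All 8 arrays lay above 0, and the gene was 1.76-fold higher (0.81 ± 0.17, adjusted p = 0.0015).

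Rps26 encodes a protein that contacts the mRNA just upstream of the start codon in the exit channel. Its Cy5 arrays read 0.96, 0.82, 0.76 and 0.67 and its Cy3 arrays 0.69, 0.58, 0.44 and 0.34. Again all 8 arrays were above 0, and Rps26 was 1.57-fold higher (0.65 ± 0.14, adjusted p = 0.00238). Its 3 probes gave 0.57, 0.58 and 0.81, each past the threshold alone (adjusted p = 0.0049, 0.0031 and 0.0013 by limma over probes).

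Rps9, a protein of the shoulder of the small subunit that helps to keep decoding accurate, was 1.42-fold higher (0.51 ± 0.36, adjusted p = 0.0272). In mice 1 to 4 the Cy5 arrays read 0.64, 0.55, 1.31 and 0.63 and the Cy3 arrays 0.19, 0.05, 0.78 and -0.09. Mouse 3 was high on both of its arrays. That came mainly from 1 of the 2 probes, which read 1.82 and 1.56 in mouse 3 and at most 0.74 in the others, while the second probe read 0.80 and -0.01 in mouse 3. The adjusted p rose to 0.0664 when mouse 1 was left out and to 0.0514 when mouse 2 was left out, which ended the call. Without mouse 3 the mean was 0.33 and still passed (adjusted p = 0.047). On the Cy3 arrays alone the mean was 0.23 and did not pass (adjusted p = 0.29).

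Rps28 and Rps21, small proteins of the subunit, were higher by smaller amounts. Rps28 rose by 0.28 ± 0.16 on the log2 scale (adjusted p = 0.0454), with mouse means from 0.12 to 0.47 and all 8 arrays above 0. Leaving out any 1 mouse ended that call (adjusted p = 0.0603 to 0.167), as did leaving out its probe in a block of numbers where the name offset is least borne out (adjusted p = 0.0938). Rps21 rose by 0.27 ± 0.04 (adjusted p = 0.0253), with mouse means from 0.20 to 0.30, the smallest spread between mice of the genes called. Its 5 probes ran from 0.13 to 0.40, and 3 of them passed alone. Leaving out mouse 1, 2 or 3 ended the call (adjusted p = 0.103, 0.0928 and 0.0805). On the Cy3 arrays alone neither Rps28 (0.21, adjusted p = 0.261) nor Rps21 (0.13, adjusted p = 0.378) passed.

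The small subunit gene that fell was Rps6, the phosphorylation target of the S6 kinases. With transgenic RNA in Cy5 the arrays gave -0.19, -0.31, -0.31 and -0.39 and the Cy3 arrays -0.23, -0.51, -0.29 and -0.61. All 8 arrays lay below 0, and Rps6 was 1.28-fold lower (-0.35 ± 0.13, adjusted p = 0.0151). Its probes gave -0.48 and -0.23, and the call was lost without mouse 2 (adjusted p = 0.0632). Rps4x, the X-linked copy of the S4 protein, had a mean of -0.30 ± 0.31 and did not pass (adjusted p = 0.0983); mouse 1 was near 0 (-0.02) and mouse 4 at -0.69.

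Among large subunit genes, 5 of 38 were higher and 5 lower. Rpl39l encodes a close relative of the exit tunnel protein RPL39 that is known mainly from testis. Its values were 0.75, 0.19, 0.64 and 0.39 on the Cy5 arrays and 0.60, 0.18, 0.74 and 0.73 on the Cy3 arrays. Every array was above 0, mouse 2 was the lowest on both, and Rpl39l was 1.44-fold higher (0.53 ± 0.24, adjusted p = 0.00934). Rpl39 itself had a mean of -0.04 ± 0.14 (adjusted p = 0.74), with mouse means from -0.24 to 0.07. The difference between the paralogs was not tested.

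Of the stalk proteins, which form the arm that draws elongation factors to the large subunit, Rplp2 was higher. The Cy5 arrays gave 0.56, 0.50, 0.90 and 0.74 and the Cy3 arrays 0.50, 0.25, 0.40 and -0.19. Only the Cy3 array of mouse 4 fell below 0, and Rplp2 was 1.37-fold higher (0.46 ± 0.16, adjusted p = 0.00865), but the Cy3 arrays alone gave 0.24 (adjusted p = 0.226). Rplp1, its partner, had a mean of 0.23 ± 0.16 (adjusted p = 0.0778), and it passed with the arrays centred on their medians (0.27, adjusted p = 0.0388). Rplp0, the base of the stalk, had a mean of 0.23 ± 0.24 (adjusted p = 0.125) from probes that read -0.06 and 0.52. All 3 stalk genes had means above 0 in 4 of 4 mice, and 1 of the 3 passed. The same held for 13 of 62 members in all and for 2013 of 8692 genes tested. In mouse 4 Rplp0 and Rplp1 were close to 0 (0.01 and 0.04).

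Rpl37a, Rpl8 and Rpl38 were also higher. Rpl8, a protein near the peptidyl transferase centre, rose by 0.28 ± 0.17 (adjusted p = 0.0454) with probes at 0.34, 0.34 and 0.17. Rpl37a rose by 0.30 ± 0.20 (adjusted p = 0.0474) with probes at 0.30 and 0.29, and Rpl38, which is known from patterning of the mouse skeleton, by 0.28 ± 0.11 (adjusted p = 0.0318). In all 3 genes the Cy3 array of mouse 4 was the only one of 8 below 0. None of the 3 passed without mouse 1, without mouse 2 or without mouse 3 (adjusted p = 0.0558 to 0.18). The Cy3 arrays alone gave 0.11 for Rpl37a, 0.08 for Rpl8 and 0.09 for Rpl38. None passed there (adjusted p = 0.589, 0.684 and 0.56).

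The lowest member was Rpl27a, which encodes a core protein of the large subunit. The Cy5 arrays gave -0.25, -0.44, -0.20 and -0.20 and the Cy3 arrays -0.32, -0.64, -0.43 and -0.94. All 8 arrays lay below 0, and Rpl27a was 1.34-fold lower (-0.42 ± 0.15, adjusted p = 0.00962). Rpl31, a protein at the rim of the exit tunnel, was 1.31-fold lower (-0.39 ± 0.19, adjusted p = 0.018) and also below 0 on 8 arrays; leaving out mouse 2 ended the call (adjusted p = 0.0725), and its only probe lies in a block of numbers where the offset is least borne out. Rpl10a, of the L1 stalk at the exit site, fell by 0.30 ± 0.06 (adjusted p = 0.0182), below 0 on 8 arrays, and missed it without mouse 1, 2 or 3 (adjusted p = 0.0513 to 0.0879).

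RPL5 and RPL11 form a particle with the 5S RNA, and both genes fell. Rpl5 gave -0.14, -0.13, 0.08 and -0.24 on the Cy5 arrays and -0.42, -0.65, -0.61 and -0.96 on the Cy3 arrays. The orientations did not overlap in this gene; its mean was 1.31-fold lower (-0.38 ± 0.15, adjusted p = 0.014), lost without mouse 2 (adjusted p = 0.0535) and on the Cy5 arrays alone (adjusted p = 0.332). Rpl11 fell by 0.28 ± 0.17 (adjusted p = 0.0463) with probes at -0.31 and -0.25. It lay just inside the threshold and did not pass without any 1 of the mice (adjusted p = 0.0568 to 0.126), with the arrays centred on their medians (adjusted p = 0.0547) or on the Cy5 arrays alone (adjusted p = 0.153).

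Rpsa, Rps26, Rpl39l and Rpl27a kept their calls under each of the 16 alternatives run for single genes, and the other 12 called genes lost theirs under at least 1. Rpsa, Rpl39l and Rpl27a rest on 1 probe each, measured on 8 arrays and outside the blocks where the offset is least borne out. The alternatives on averaging of probes, on missing values and on those blocks therefore could not change their values. A sign shared by all 8 arrays was found above 0 in 4 members (6.45%), Rpsa, Rps26, Rpl39l and Rps28, against 10.9% of all genes. It was found below 0 in 6 members (9.68%) against 17% of all genes: Rpl27a, Rpl31, Rps6, Rpl10a, Rpl9 (-0.26) and Rps27l (-0.14), of which the last 2 did not pass and were named after their values were seen. The 46 genes not called had means from -0.30 to 0.24. For 44 of the 46, the 95% interval of limma lay within 0.5 of 0 on the log2 scale.

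Other paralogs and close relatives gave these values. Rpl22, an RNA-binding protein of the large subunit, had a mean of 0.10 ± 0.16 (adjusted p = 0.387) and its paralog Rpl22l1 one of -0.07 ± 0.20 (adjusted p = 0.621). Rps27 was at 0.02 ± 0.19 (adjusted p = 0.881) and the p53-linked copy Rps27l at -0.14 ± 0.07 (adjusted p = 0.161). None of these 4 passed. Fau, whose protein is cut into a ubiquitin-like part and the small subunit protein S30, lies outside the symbol rule and had a mean of 0.24 ± 0.21 (adjusted p = 0.0943), passing with the arrays centred on their medians (adjusted p = 0.0484) and without mouse 4 (adjusted p = 0.0481). Of the 62 symbols, Rpl7l1, Rpl22l1, Rpl39l, Rps27l and Rps19bp1 are relatives or, for Rps19bp1, a binding partner rather than standard subunits; without them 9 of 57 were higher and 6 lower. Ribosomal protein genes have many near-identical processed copies in the mouse genome, probe sequences were not used here, and signal from such copies cannot be told apart from that of the gene.

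A second comparison set the large against the small subunit. The median log2 ratio was -0.001 over 38 large subunit genes and 0.031 over 24 small subunit genes. In mice 1 to 4 the large subunit medians were 0.15, 0.08, -0.004 and -0.26 and the small subunit medians 0.24, 0.08, 0.13 and -0.19. The large minus small difference was -0.09, -0.0004, -0.13 and -0.06 in mice 1 to 4, a mean of -0.07 ± 0.06. The sign was the same in 4 mice, but in mouse 2 the difference was close to 0. It is given as a description without a test. Of the large subunit genes 13.2% were higher and 13.2% lower, and of the small subunit genes 20.8% were higher and 4.17% lower, beside 13.5% and 18.4% of all genes.

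**Figure D2:**
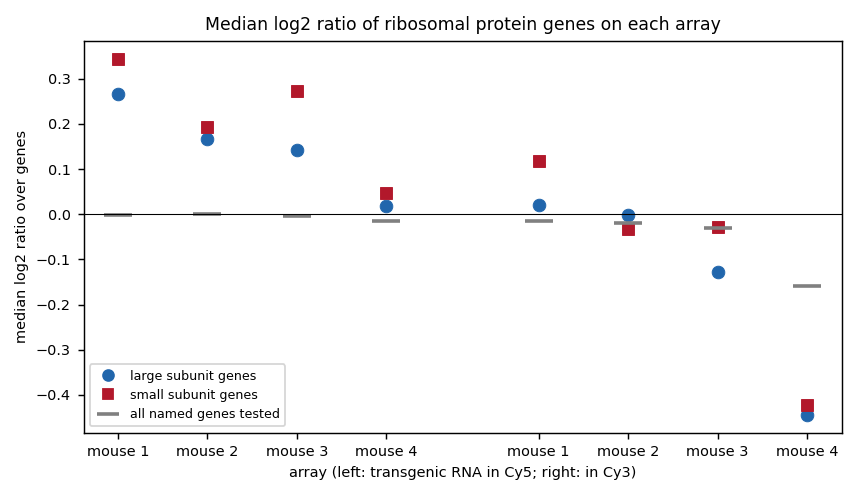
Median log2 ratio (y axis) of large subunit genes (blue circles), small subunit genes (red squares) and all named genes (grey bars) on each of the 8 arrays (x axis), with the 4 Cy5 arrays at left and the 4 Cy3 arrays at right. In each mouse both subunits lie lower on the Cy3 array; the lowest point, -0.44 for the large subunit, is the Cy3 array of mouse 4.

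The third comparison asked whether the ratios depended on the dye orientation. In nearly all members the ratio was higher on average when the transgenic RNA carried Cy5. On the arrays with transgenic RNA in Cy5, the member medians were 0.28, 0.18, 0.22 and 0.02 in mice 1 to 4, and with it in Cy3 they were 0.07, -0.03, -0.09 and -0.44. Every mouse had the lower median in Cy3. Medians over all named genes moved less, from -0.014 to -0.0005 on Cy5 arrays and from -0.16 to -0.015 on Cy3 arrays.

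The within-mouse difference, Cy5 array minus Cy3 array, was above 0 on average in 59 of 62 members (95.2%), against 63% of all genes, and above 0 in all 4 mice in 47 members (75.8%), against 26.9% of all genes. Its median was 0.30 over members, 0.29 in the large and 0.33 in the small subunit, and 0.085 over all genes. The exceptions were Rpl39 (-0.13), Rpl39l (-0.07) and Rpl9 (-0.003). The difference was largest in Rpl23, which read 0.18 in Cy5 and -0.59 in Cy3 (named after its values were seen). By limma on the within-mouse differences, 0 of 62 members and 0% of 8645 genes passed; the smallest adjusted p was 0.135. At an unadjusted p under 0.05 there were 37 members (59.7%) and 26.6% of all genes. Each gene averages both orientations equally, so a dye effect of equal size cancels in the mouse means.

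**Figure D3:**
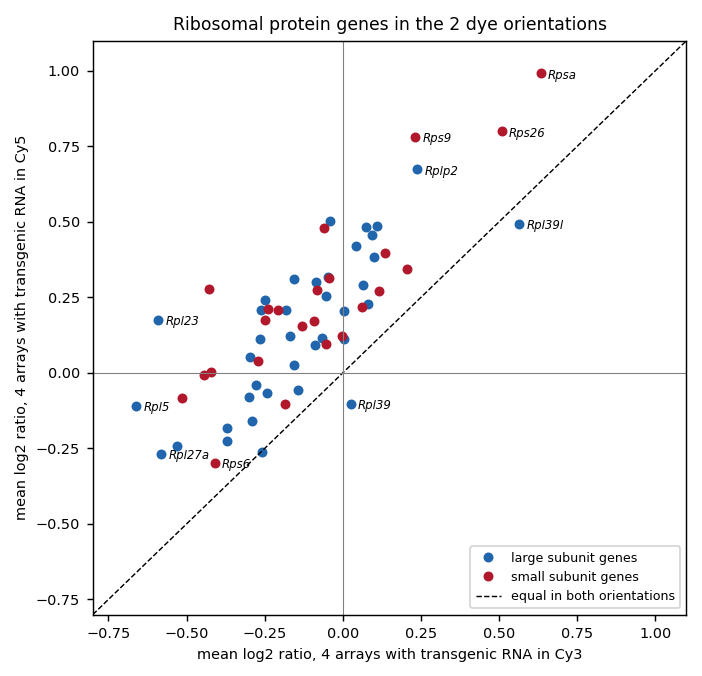
Mean log2 ratio of each ribosomal protein gene on the 4 arrays with transgenic RNA in Cy3 (x axis) and in Cy5 (y axis), blue for the large and red for the small subunit; the dashed line marks equal values. Of the 62 points, 59 lie above the line, and 28 have a mean above 0 in Cy5 and below 0 in Cy3. The count of 28 has no counterpart over all genes, where it was not made.

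The calls differed between orientations when arrays of 1 kind were used alone, each fit then holding 4 of the 8 arrays. The Cy5 arrays gave 21 members higher (33.9%, against 16.1% of all genes) and 2 lower (3.23%, against 16.1%). The Cy3 arrays gave 3 higher (4.84%, against 7.87%) and 8 lower (12.9%, against 14.2%). By subunit, 12 large and 9 small genes were higher in Cy5, and 6 large and 2 small genes were lower in Cy3. Higher in both were Rpsa, Rps26 and Rpl39l, and lower in both were Rpl27a and Rps6. Calls shared by both orientations were not counted over all genes. No member was called in opposite directions. The difference between orientations is the one tested above, in which no single member passed.

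The last comparison asked whether members differed between mice. Mouse 4 had the lowest mean in 52 of 62 members and mouse 1 the highest in 41. These counts, and the count by array below, were not made over all genes. They are therefore not shown to be particular to members. The member median was 0.18 in mouse 1, 0.08 in mouse 2, 0.05 in mouse 3 and -0.24 in mouse 4, while the median of all genes ran from -0.06 to -0.006. The Cy3 array of mouse 4 moved with this: it was the lowest of 8 arrays in 54 members, its median over all named genes was -0.16, and its interquartile range over genes was 0.76 on the log2 scale against 0.43 to 0.50 on the other 7 arrays. With the Cy5 array alone standing for mouse 4, 16 members were higher and 7 lower, beside 15.4% and 18.2% of all genes. By the limma F test with dye as covariate, 0 members differed between mice, against 2.74% of 8645 genes; the smallest adjusted p of a member was 0.0639. At an unadjusted p under 0.05 there were 18 members (29%), against 20.5% of all genes. On single probes 1 passed, the Rps9 probe that was high in mouse 3 (adjusted p = 0.0239 by limma; named after its values were seen).

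Members with several probes show how far single spots can be relied on. Of 23 such genes, 14 had all probe means of one sign and 9 did not; the median gap between the highest and lowest probe of a gene was 0.19. Rpl14, a large subunit protein, differed most: its 3 probes gave 0.87 ± 0.41, 0.09 ± 0.18 and -0.23 ± 0.29, and the gene mean of 0.24 did not pass (adjusted p = 0.132). The first of these probes was above 0 on 8 arrays and passed alone (adjusted p = 0.0053 by limma over probes). Rpl14 passed when names in the weaker blocks, which hold its lowest probe, were left out (0.48, adjusted p = 0.0167). Beside Rplp0, described above, Rpl32 had probes at 0.36 and -0.09 and Rpl4 probes at 0.13, -0.21 and -0.29. Rps14 had probes at 0.27 and -0.08, and Rps24 probes at 0.13 and -0.13. Counted as single probes, 19 were higher and 8 lower of 93, beside 12.6% and 18.5% of all named probes.

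**Figure D4:**
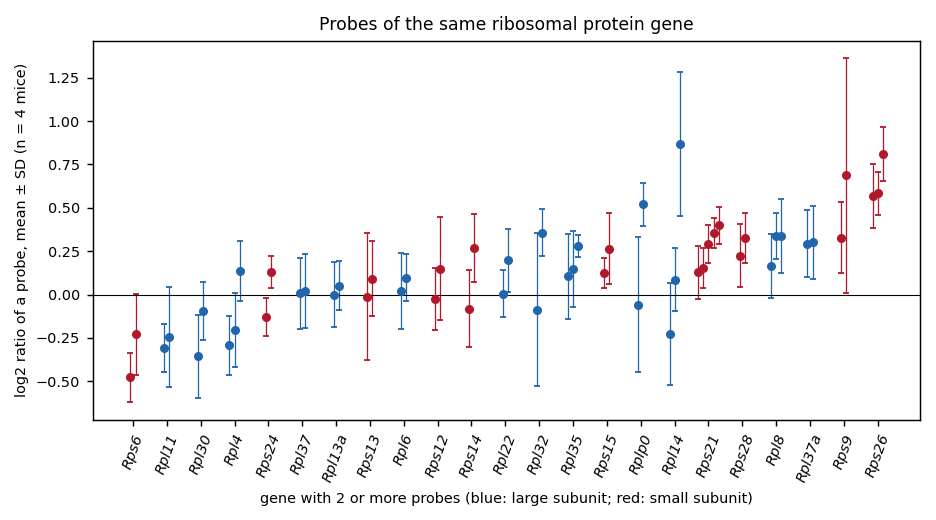
Log2 ratio of each probe (y axis, mean ± SD over 4 mice) for the 23 ribosomal protein genes with 2 or more probes (x axis, ordered by gene mean), blue for the large and red for the small subunit. The 3 probes of Rps26 lie together between 0.57 and 0.81, while those of Rpl14 span from -0.23 to 0.87.

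Other genes of translation were taken from fixed lists and are counts from the same limma test. Beside each of these lists stand 13.5% of all genes tested that were higher and 18.4% that were lower. Of 38 ribosome biogenesis genes, 3 were higher and 4 lower (median -0.05): Polr1a, the catalytic subunit of RNA polymerase I (0.46 ± 0.02), the rRNA methyltransferase gene Fbl (0.30 ± 0.11) and Rrp9 (0.27 ± 0.09) rose, and the largest falls were in Imp3 (-0.74 ± 0.14), Nvl (-0.52 ± 0.07) and Rrs1 (-0.45 ± 0.20). Initiation factors had 3 higher and 7 lower of 33 (median -0.09). Eif4a2, a helicase of the cap-binding complex, fell by 0.85 ± 0.19, Eif4a1 by 0.48 ± 0.13 and the eIF3 subunit gene Eif3h by 0.44 ± 0.26. Eif3j1 (0.37 ± 0.21), Eif3b (0.29 ± 0.11) and Eif2d (0.25 ± 0.09) rose.

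Elongation factors had 1 higher, Eif5a (0.45 ± 0.36), and 0 lower of 7 (median -0.06). Eif5a was highest in mouse 4 (0.99, against 0.23 to 0.33 in the others) and had a mean of 0.27 without it, and its dye difference was -1.04, of opposite sign to nearly all members. Of 17 other mRNAs known for a terminal oligopyrimidine tract, 1 was higher, Btf3 (0.41 ± 0.09), and 4 were lower (median -0.12), led by Hnrnpa1 (-0.71 ± 0.44), the histone chaperone gene Nap1l1 (-0.59 ± 0.14) and Eif3h. In the mTORC1 and S6 kinase axis 0 of 10 genes were higher and 1 lower, the kinase gene Mtor itself (-0.34 ± 0.08). Mitochondrial ribosomal protein genes, encoded apart from the cytosolic ones, had 4 higher and 8 lower of 61 (median -0.03). Mrpl2 (0.57 ± 0.18), Mrpl28 (0.49 ± 0.18) and Mrpl12 (0.46 ± 0.10) rose, and Mrpl3 (-0.72 ± 0.36), Mrps30 (-0.54 ± 0.16) and Mrpl49 (-0.50 ± 0.10) fell.

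Of the translation genes named here, Rrp9, Eif2d, Eif3b, Eif3j1, Fbl, Eif5a, Hnrnpa1, Eif3h and Mtor missed the threshold of limma when at least 1 of the mice was left out (adjusted p = 0.0504 to 0.141).

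The dye difference was also above 0 in 49 of the 61 mitochondrial ribosomal protein genes (median 0.19) and in 32 of the 38 biogenesis genes (median 0.21). It was smaller in initiation factors (0.09, above 0 in 22 of 33) and in elongation factors (0.04, above 0 in 4 of 7). Over all genes the median dye difference was 0.085, and 63% were above 0.

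Cell type markers moved in the same lungs, where 13.5% of all genes were higher and 18.4% lower. Markers of B and plasma cells were higher in 4 of 4 measured genes, with mouse medians from 0.65 to 1.11, those of T cells in 2 of 3 (0.33 to 0.97) and those of proliferation in 5 of 6 (0.57 to 0.96). Macrophage markers were higher in 2 of 4, Ctsk (2.72 ± 0.67) and Mrc1 (1.24 ± 0.27), and lower in 1, Marco (-2.54 ± 0.28). Lyz2 (-0.17 ± 0.17) was not called, and the mouse medians of 0.30 to 0.80 average over these opposite changes. Markers of type 1 alveolar epithelium were lower in 3 of 4 (-0.80 to -0.44) and of heart muscle in 5 of 5 (-1.49 to -0.61). Type 2 epithelium had 1 higher of 4 (-0.03 to 0.37), endothelium 1 higher of 3 (-0.53 to 0.17), club cells 1 lower of 2 (-1.63 to 0.04) and erythroid cells 1 lower of 2 (-0.51 to -0.24). Without mouse 1 the calls of Sftpb (type 2), Ramp2 (endothelium), Aldh1a1 (club cells) and Cd79b (B cells) were lost. Their adjusted p by limma was then 0.0919, 0.0873, 0.15 and 0.0661. Leaving out mouse 2 also ended the calls of Sftpb and Ramp2 (adjusted p = 0.0879 and 0.0838). Those of Aldh1a1 and Cd79b were also lost without mouse 3 (adjusted p = 0.133 and 0.0583), and that of Aldh1a1 without mouse 4 (adjusted p = 0.07). The part of these cell types in the changes of ribosomal protein genes was not tested.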

How the data were processed

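The authors deposited a log2 ratio for each probe of each two-colour array, after indirect labelling with Cy3 or Cy5, per the labels' protocols. For background correction, normalization and filters the method is not given in the sources. The 498 values beyond 10 in size, none of them in members, were set to missing, and 706 were missing as deposited. Probe numbers of the annotation plus 11 gave the row of the values, for annotation numbers up to 20237; gene identifiers matched the RefSeq table of GRCm38.p6 for all 12771 annotated probes. The alternatives in the closing section changed the centring, the averaging of probes and arrays, the mice used and the dye orientation. Probes of a gene were averaged on each array, then both arrays of a mouse, and limma 3.58.1 (R 4.3.3; lmFit and eBayes, two-sided, Benjamini-Hochberg over all genes) compared the mean with 0. Dye effects were tested on within-mouse differences and mice by an F test with dye. The fit was tested on simulated data of 8692 genes. It recovered 49 of 100 genes changed by 0.5 and 91 of 100 changed by 1 on the log2 scale, with 8 false calls. The simulated noise was independent between mice and held no error shared through the pool, no dye effect and no deviating array. The false calls therefore do not give the rate in these data. Counting and plots used Python 3.11.15, pandas 2.3.3, scipy 1.17.1 and matplotlib 3.10.9.

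Members and lists were chosen with earlier results of these data known. Genes named were the called members (at most 12 each way), up to 6 members with probes of opposite sign, those past the threshold for dye or mouse (none), members with a role of their own, and up to 3 genes each way of other lists. Of that rule, Rps27a, Rack1, Rps3, Rpl3, Rpl3l, Rpl10 and Rpl10l had no tested probe under that name.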

Additional observations from a re-analysis of the deposited data

Results flagged for a closer look

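The median dye difference of ribosomal protein genes, Cy5 array minus Cy3 array, stood apart in 1 mouse: it was 0.50 on the log2 scale in mouse 4 and between 0.23 and 0.26 in the other 3 mice. It was marked because its gap to the nearest mouse took 0.864 of the whole range, above the Dixon 95% limit for 4 samples. Over all named genes the same quantity was 0.18 in mouse 4 and 0.05 to 0.06 in the others. Without mouse 4 the member median was 0.25 instead of 0.30. Of 34 sets of 4 mouse values looked at, this was the only one marked; chance marks about 1 in 20.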

How the results depend on the processing

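Of the values of named genes under the alternatives, 414 kept their side of the threshold, 46 fell short of it and 19 newly passed. No called gene changed sign, but 9 of the 30 named genes, none of them called, had a mean of the other sign under at least 1 alternative: Rpl32, Rpl4, Rps14, Rps24, Rplp1, Rpl22, Rpl22l1, Rps27 and Rpl39. With the Cy3 arrays alone Rps24 was at -0.21, Rps14 at -0.08, Rpl32 at -0.05 and Rplp1 at -0.04. Leaving out 1 mouse at a time gave 4 to 10 members higher and 1 to 5 lower, 2 to 5 and 1 to 4 in the large subunit, and 2 to 5 and 0 to 1 in the small subunit, while 6.9% to 11% of all genes were higher and 10.9% to 14% lower. The median log2 ratio then ran from -0.05 to 0.08 in the large and from -0.02 to 0.14 in the small subunit, their difference from -0.06 to -0.02, and the median dye difference from 0.25 to 0.35. With the Cy5 arrays alone, 21 were higher and 2 lower, with 12 and 1 in the large subunit and 9 higher in the small one. With the Cy3 arrays alone 3 were higher, 1 of them in the large subunit, and the small subunit had 2 higher and 2 lower. On single probes 19 were higher, 9 large and 10 small, the difference of subunit medians was -0.12, and 1 probe differed between mice; of all named probes 12.6% were higher. Values as deposited, with placeholders kept, gave 3 large subunit genes higher, and mouse as a random block with a dye term gave 2 small subunit genes lower. With mouse 4 from its Cy5 array alone, chosen after seeing the data, 16 were higher, 9 of them large, beside 15.4% of all genes. The cause of these shifts was not tested. Centring the arrays on their medians gave 13 higher and 5 lower, beside 16.4% and 16.5% of all genes. Transgenic and wild-type animals could not be paired because the ratios form 1 group and the control is 1 pool. The number of mice limits the precision: the 95% interval of a member's mean reached a median of 0.21 to either side on the log2 scale.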
